A study of Mus musculus with 6 samples.

Results

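Messenger RNA of 10 genes of classical MHC class I antigen presentation was compared between WT and *Drp1* KO bone marrow-derived macrophages (BMDMs) after hypoxia with serum starvation (HSS). The genes were taken by name, as members of the pathway: the heavy chains *H2-K1* and *H2-D1*, the light chain *B2m*, the peptide transport and loading genes *Tap1*, *Tap2* and *Tapbp*, the immunoproteasome subunits *Psmb8*, *Psmb9* and *Psmb10*, and the transactivator *Nlrc5*. They are 10 of 36137 genes in the deposited tables, and all 10 were among the 18506 genes tested. Both groups held 3 libraries of day 7 BMDMs kept for 8 hours in 2.1% oxygen in endothelial starvation medium without fetal bovine serum, with L929-conditioned medium as a source of M-CSF. *Drp1* KO cells came from *LysM*-Cre+/- *Drp1* fl/fl mice, in which Cre from the lysozyme M promoter deletes the floxed gene for the mitochondrial fission protein DRP1 in myeloid cells. WT cells came from *LysM*-Cre+/- *Drp1* +/+ mice, so that both groups carried 1 copy of *LysM*-Cre. The mice were young adults of both sexes, the Cre line was on C57BL/6J, and the methods describe marrow of a pair of mice pooled per genotype. The labels call the libraries of each group biological replicates. The sources do not say whether each library came from a separate pool of mice, and the p-values measure the spread between these libraries. No normoxic library was analysed here, so the effect of HSS itself was not measured.

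Class I molecules show peptides from inside the cell to CD8+ T cells. The proteasome cuts proteins into peptides, TAP carries them into the endoplasmic reticulum, tapasin holds an empty class I molecule beside TAP, and a heavy chain with β2-microglobulin and peptide then moves to the cell surface. Interferons raise most of these genes, in part through NLRC5, which acts at a shared promoter module together with RFX, CREB/ATF and NF-Y proteins, and in macrophages 3 catalytic subunits of the standard proteasome can be exchanged for those of the immunoproteasome.

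The promoters of 4 genes are shown, for the 3 chains of the surface molecule and for *Tap1*, because the chains share a motif arrangement but not a test result, and *Tap1* was the transport gene that changed. The sequences are RefSeq windows (GRCm38.p6) of 250 bases before to 50 bases after the gene start, placed on GRCm39 by exact match. The RefSeq start can differ from the end of the GENCODE gene span given with each gene, so a window can lie inside that span, as in *H2-D1* and *Tap1*. Capitals mark CCAAT, the motif TGACG and the core of an interferon-stimulated response element (ISRE), which is GAAA, any 2 bases and GAAA again, each on either strand.
H2-K1, chr17:34219258-34219557, minus strand: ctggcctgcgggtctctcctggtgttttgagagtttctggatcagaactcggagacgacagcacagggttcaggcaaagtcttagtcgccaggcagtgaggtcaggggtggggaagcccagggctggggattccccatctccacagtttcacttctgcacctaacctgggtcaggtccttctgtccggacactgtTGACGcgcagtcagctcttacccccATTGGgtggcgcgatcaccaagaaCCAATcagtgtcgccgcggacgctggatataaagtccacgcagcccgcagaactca
H2-D1, chr17:35481820-35482119, plus strand: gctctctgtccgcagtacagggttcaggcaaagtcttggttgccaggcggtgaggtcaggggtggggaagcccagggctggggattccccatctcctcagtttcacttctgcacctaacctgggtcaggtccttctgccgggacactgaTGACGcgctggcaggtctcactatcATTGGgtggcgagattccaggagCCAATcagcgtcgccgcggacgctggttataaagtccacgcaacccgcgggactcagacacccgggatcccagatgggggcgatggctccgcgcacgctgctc
B2m, chr2:121977918-121978217, plus strand: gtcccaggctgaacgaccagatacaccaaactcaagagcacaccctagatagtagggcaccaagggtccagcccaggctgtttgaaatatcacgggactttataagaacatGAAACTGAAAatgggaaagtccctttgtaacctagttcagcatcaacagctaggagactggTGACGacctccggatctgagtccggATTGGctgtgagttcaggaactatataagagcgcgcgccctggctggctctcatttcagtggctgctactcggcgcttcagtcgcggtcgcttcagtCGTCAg
Tap1, chr17:34406280-34406579, plus strand: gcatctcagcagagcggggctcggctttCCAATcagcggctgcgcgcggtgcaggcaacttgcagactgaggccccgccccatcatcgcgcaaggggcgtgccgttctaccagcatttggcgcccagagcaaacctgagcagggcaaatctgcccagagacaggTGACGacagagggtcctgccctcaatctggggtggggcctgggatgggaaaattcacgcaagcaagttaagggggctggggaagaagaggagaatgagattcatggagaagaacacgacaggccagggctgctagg

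Windows were found for 8 of the 10 genes, and not for *Nlrc5* and *Tap2*. In *H2-K1*, *H2-D1* and *B2m*, TGACG was followed on the same strand by ATTGG, the reverse complement of CCAAT, with 25 bases from the first base of one to the first base of the other. This pair at this distance, which was read from *H2-K1* and then searched, occurred in 31 of 32851 mouse promoter windows (0.0944%), on either strand. TGACG alone was in 5 of the 8 genes and in 20.8% of all windows, and CCAAT was in 6 of the 8 and in 37.4%. The exact ISRE core pattern was in *B2m* only, from -139 to -130, and in 3.44% of all windows. Elements that depart from this pattern were not searched, so its absence in *H2-K1*, *H2-D1* or another gene does not show that a related element is absent. A GAS motif, TTCNNNGAA, was in *Psmb8* only, from -97 to -89, and in 8.3% of windows. A κB motif, GGG and CC with 5 bases between them, was in 5 of the 8 and in 50.8% of windows. The windows of *Tap1* and *Psmb9*, which are transcribed away from each other, shared 275 bases, so a motif there is counted for both. These matches are letters in a window and were not tested as binding sites.

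Counts were compared on the CPM scale, which sets every library to a common total after TMM scaling. The libraries held 23389488 to 32231206 estimated counts. The targeted gene *Dnm1l*, which encodes DRP1, was at 72.7, 69.9 and 75.1 CPM in WT and at 58.7, 60.7 and 66.3 CPM in *Drp1* KO libraries. Every *Drp1* KO value lay below every WT value, but the log2 fold change of -0.23 had an adjusted p of 0.248 (edgeR), and the part of the gene that the floxed allele removes was not examined separately. Macrophage markers summed to 13600 to 15100 CPM in WT and 12200 to 14600 CPM in *Drp1* KO libraries, with *Fcgr1* higher and *Mertk* and *Csf1r* lower at an adjusted p under 0.05. Neutrophil markers summed to 90.3 to 98.5 CPM in WT and 119 to 221 CPM in *Drp1* KO, with 8 of the 8 markers tested higher and 0 of them past the threshold, *Ly6g* at 0, and *Elane* and *Retnlg* also under 10 counts in all. Dendritic cell markers summed to 9.75 to 11.8 CPM in WT and 7.4 to 9.63 CPM in *Drp1* KO, with *Cd209a* at 0, and lymphocyte markers to 308 to 324 and 124 to 248 CPM, with *Ncr1* at 0. Fibroblast markers summed to 15.6 to 23.1 and 14.5 to 17.9 CPM. The part of these cells in the class I differences was not tested, and in bulk RNA more cells of a type cannot be told apart from more RNA per cell.

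All 10 class I genes had a higher mean in *Drp1* KO than in WT BMDMs, and 3 of them passed the test (adjusted p under 0.05, edgeR's quasi-likelihood test with Benjamini-Hochberg adjustment over all genes tested). These were *B2m*, *Tap1* and *Nlrc5*, and each stood about 1.8 to 1.9 times its WT level. Of all genes tested, 2.29% passed in this direction. None of the 10 passed in the other direction (0 of 10), in which 1.06% of all genes did. The median log2 fold change of the 10 was 0.51, and that of all genes tested was 0.01 (9363 of 18506 higher). In 6 of the 10, every *Drp1* KO library lay above every WT library in CPM (*B2m*, *Tap1*, *Tapbp*, *Psmb9*, *Psmb10* and *Nlrc5*), which was so for 11.7% of all genes. In TPM, which divides by transcript length, the groups of *Tapbp* and *Psmb9* overlapped and those of *H2-K1* did not. By the criteria of the study, a minimum fold change together with an unadjusted p under 0.05, 7 of the 10 were higher (edgeR), against 7.19% of all genes. When libraries of the same number were paired, 8 of the 10 passed at an adjusted p under 0.05, all but *H2-D1* and *Tap2*, against 6.73% of all genes. By DESeq2, 6 of the 10 passed, against 3.58%. WT library 1 had the highest WT level of all 10 genes.

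**Figure D1:**
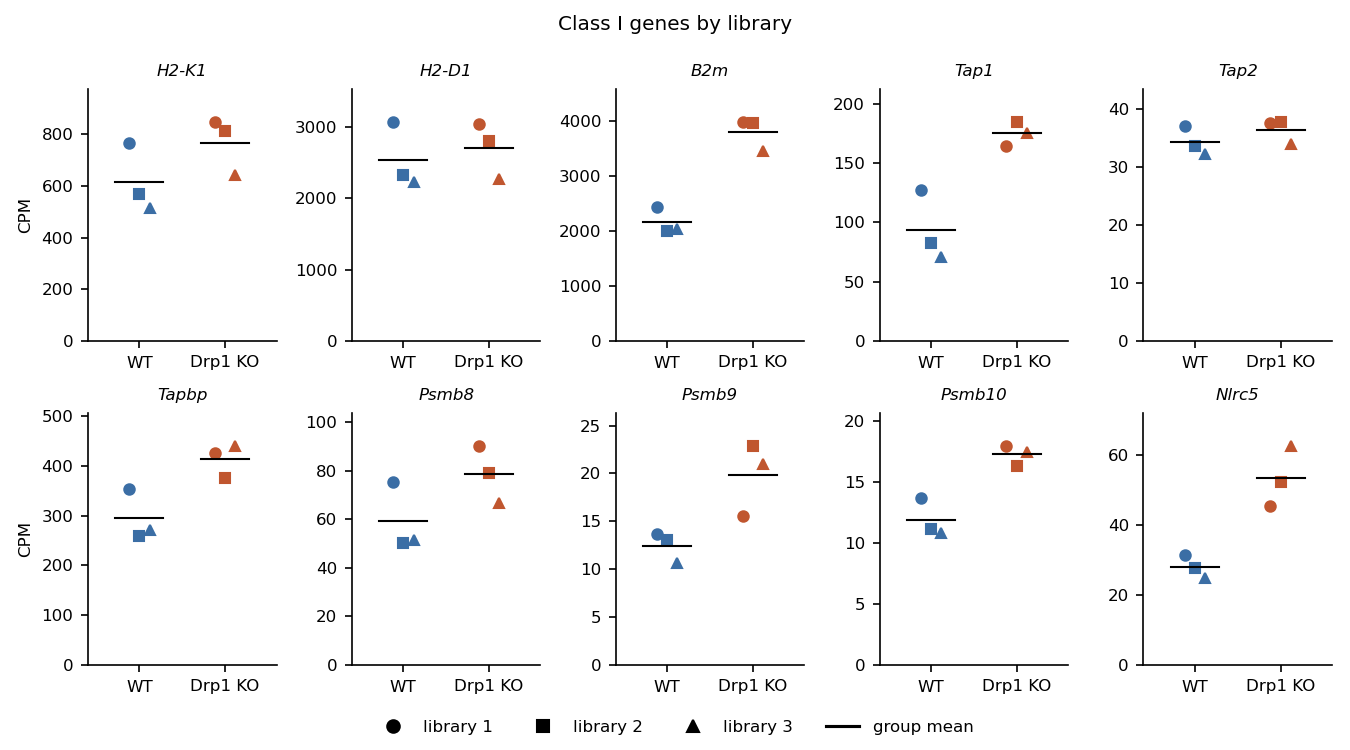
CPM of the 10 class I genes in each library (vertical axes in CPM, starting at 0, on a separate scale for each gene), with WT in blue, *Drp1* KO in orange, a symbol for each library number and a line at the group mean (n = 3). In 6 panels every *Drp1* KO point lies above every WT point, and the WT circle, library 1, is the highest WT point in all 10.

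Levels between genes were compared per length, in TPM, which divides by transcript length and sets each library to the same total. In WT BMDMs *B2m* was highest at 5709 ± 437 TPM (mean ± SD, n = 3), then *H2-D1* at 1496 ± 246, *H2-K1* at 649 ± 135, *Tapbp* at 143 ± 22.9, *Psmb8* at 84.7 ± 15.2 and *Tap1* at 43.7 ± 11.9 TPM. The ranges of these neighbours did not overlap. *Psmb9* (16.1 ± 2.40), *Nlrc5* (15.6 ± 1.27), *Tap2* (15.0 ± 1.19) and *Psmb10* (13.4 ± 1.89 TPM) followed, and each of them overlapped the next. In *Drp1* KO the first 6 places were the same, *Nlrc5* was at 31.4 ± 7.54 TPM and *Tap2*, the lowest, at 15.1 ± 0.721 TPM. The order of transcript levels is thus light chain, heavy chains, tapasin, then the transporter, proteasome and transactivator genes. The *Tap2* level is mostly that of a transcript annotated as a retained intron, as given below.

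Of the chains of the class I molecule, *B2m* passed the unpaired test and the heavy chains did not. *B2m* (chromosome 2, 121977957 to 121983594, plus strand, GRCm39), which encodes the light chain β2-microglobulin, was at 2434, 2003 and 2041 CPM in WT and at 3984, 3969 and 3445 CPM in *Drp1* KO libraries. Every *Drp1* KO library stood above the highest WT library, so the groups were separate. The mean rose from 2159 ± 239 to 3799 ± 307 CPM, a log2 fold change of 0.82 (SE 0.119, adjusted p = 0.00536, edgeR). The call was lost without WT library 2 (adjusted p = 0.0681) or WT library 3 (adjusted p = 0.0552), at log2 fold changes of 0.75 and 0.76. *B2m* has 1 annotated transcript in the tables and shares no 31-base stretch with another gene's transcripts.

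*H2-K1* (chromosome 17, 34214987 to 34219321, minus strand), the heavy chain of the K molecule, was at 765, 568 and 516 CPM in WT and at 849, 814 and 642 CPM in *Drp1* KO. The groups overlapped in CPM, since the lowest *Drp1* KO library lay below WT library 1. The log2 fold change was 0.32 (SE 0.160) with an adjusted p of 0.367 (edgeR), and it passed with the libraries paired by number (0.33, adjusted p = 0.0263). It was 0.66 with counts rebuilt from TPM and 0.18 with protein-coding transcripts alone (adjusted p = 0.0711 and 0.632).

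*H2-D1* (chromosome 17, 35481691 to 35486475, plus strand), the heavy chain of the D molecule, was at 3074, 2328 and 2235 CPM in WT and at 3044, 2810 and 2277 CPM in *Drp1* KO libraries. The groups overlapped across nearly their whole range. On the log2 scale the fold change was 0.09 (SE 0.152, adjusted p = 0.855, edgeR), with a 95% interval of -0.25 to 0.43, and it was -0.01 without WT library 3 or without *Drp1* KO library 1. The heavy chains are alike in sequence: 22.7% of the 31-base stretches of *H2-K1* and 26.6% of those of *H2-D1* occur in transcripts of other genes, 11.1% and 13.7% in each other. Their levels therefore depend on how the quantifier split shared reads. Summed as 1 gene, *H2-K1* and *H2-D1* had a log2 fold change of 0.14 (adjusted p = 0.754), and together with 14 other class I heavy chain genes 0.22 (adjusted p = 0.552, edgeR). Of those 14, *H2-T24* (log2 fold change 1.13) and *H2-T22* (1.07) passed on their own, and 9 passed with paired libraries, all higher in *Drp1* KO (2.29% and 6.73% of all genes passed upwards in these fits).

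Among the transport and loading genes, *Tap1* rose and *Tap2*, which encodes the other chain of the same transporter, gave no call. *Tap1* (chromosome 17, 34405996 to 34416199, plus strand) was at 127, 82.4 and 70.9 CPM in WT and at 165, 185 and 175 CPM in *Drp1* KO. WT library 1 stood above the other 2 WT libraries, but below all *Drp1* KO libraries. The log2 fold change was 0.91 (SE 0.185, adjusted p = 0.0273, edgeR), and 1.19 without WT library 1. Leaving out WT library 2 (adjusted p = 0.174) or 3 (0.110), or *Drp1* KO library 2 (0.116) or 3 (0.0653), ended the call.

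*Tap2* (chromosome 17, 34422501 to 34435829, plus strand) was at 37.0, 33.7 and 32.2 CPM in WT and at 37.5, 37.8 and 34.0 CPM in *Drp1* KO libraries. The groups overlapped, and the log2 fold change of 0.09 (SE 0.102, adjusted p = 0.766, edgeR) had a 95% interval of -0.14 to 0.32. Most *Tap2* counts, 68.3% ± 8.43 in WT and 69.1% ± 2.68 in *Drp1* KO, were assigned to Tap2-202, a transcript annotated as a retained intron, so its gene count is mostly not that of the coding transcript.

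*Tapbp* (chromosome 17, 34134873 to 34148267, plus strand), which encodes tapasin, was at 355, 260 and 271 CPM in WT and at 425, 376 and 440 CPM in *Drp1* KO, with no overlap between the groups. In TPM *Drp1* KO library 2 (167.5) lay just below WT library 1 (168.3), so there the groups overlapped. The log2 fold change was 0.49 (SE 0.130), with an adjusted p of 0.0780 in the unpaired edgeR fit, 0.0048 with paired libraries and 0.0129 without WT library 1. Without any 1 of the other 5 libraries it was 0.127 to 0.362.

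The 3 immunoproteasome subunits had higher means in *Drp1* KO, and none passed the unpaired test (0 of 3), while all 3 passed with the libraries paired, against 2.29% and 6.73% of all genes passing upwards. Each takes the place of a constitutive catalytic subunit, *Psmb8* (β5i) of *Psmb5*, *Psmb9* (β1i) of *Psmb6* and *Psmb10* (β2i) of *Psmb7*. *Psmb8* (chromosome 17, 34416690 to 34420428, plus strand) was at 75.5, 50.5 and 51.5 CPM in WT and at 90.3, 79.0 and 66.6 CPM in *Drp1* KO. The groups overlapped through WT library 1, and the log2 fold change was 0.41 (SE 0.168, adjusted p = 0.253, edgeR). It passed with paired libraries (adjusted p = 0.0108) and, at 0.62, without WT library 1 (adjusted p = 0.0335), but not without any 1 of the other 5 libraries (adjusted p 0.191 to 0.622).

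*Psmb9* (chromosome 17, 34400960 to 34406738, minus strand) was at 13.7, 13.0 and 10.6 CPM in WT and at 15.6, 22.9 and 20.9 CPM in *Drp1* KO libraries. The groups did not overlap in CPM, and *Drp1* KO library 1 lay nearest to WT. In TPM that library (17.42) lay below WT library 1 (17.78), so there the groups overlapped. The log2 fold change was 0.68 (SE 0.165) with adjusted p-values of 0.0561 unpaired, 0.0111 paired and 0.0132 without *Drp1* KO library 1 (edgeR), and 0.0542 to 0.241 without any 1 of the other 5. *Psmb9* overlaps *Tap1* by 743 bases on the opposite strand, 8.79% of its 31-base stretches occur in *Tap1* transcripts, and the strand setting of the quantification is not given in the sources used here. Reads from the overlap could have been assigned to either gene. *Psmb10* (chromosome 8, 106662362 to 106665077, minus strand) was at 13.6, 11.1 and 10.8 CPM in WT and at 17.9, 16.3 and 17.4 CPM in *Drp1* KO. The groups did not overlap, and the log2 fold change was 0.54 (SE 0.131), with adjusted p-values of 0.0545 unpaired, 0.0066 paired and 0.0237 without WT library 1 (edgeR), and 0.0894 to 0.269 without any 1 of the other 5.

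*Nlrc5* (chromosome 8, 95160984 to 95253900, plus strand), the class I transactivator, and *Tap1* had the largest log2 fold changes of the 10, 0.94 and 0.91 in the unpaired fit of all libraries. *Tap1* was above *Nlrc5* in the paired fit (0.95 and 0.93), and with 1 library left out *B2m* exceeded *Tap1* (without WT library 3, 0.76 and 0.72) or *Nlrc5* (without *Drp1* KO library 3, 0.89 and 0.81). *Nlrc5* was at 31.4, 27.8 and 24.8 CPM in WT and at 45.4, 52.4 and 62.7 CPM in *Drp1* KO libraries. All *Drp1* KO values were above all WT values. The mean rose from 28.0 ± 3.34 to 53.5 ± 8.71 CPM, a log2 fold change of 0.94 (SE 0.139, adjusted p = 0.00595, edgeR), and the call was lost without WT library 2 (0.91, adjusted p = 0.0552).

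**Figure D2:**
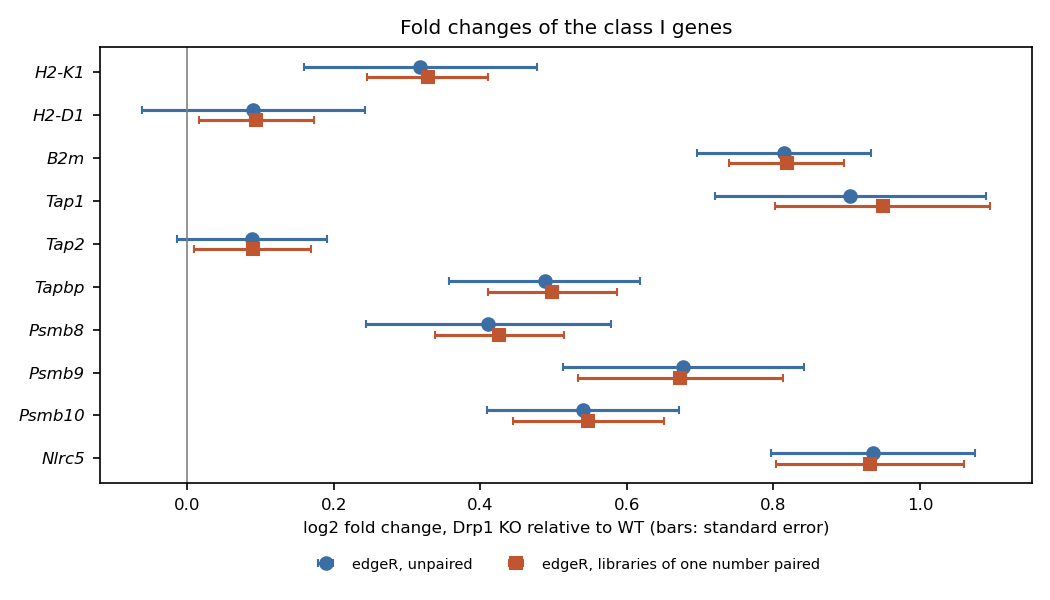
Log2 fold change of *Drp1* KO relative to WT for each gene (horizontal axis), with bars of 1 standard error, from the unpaired edgeR fit (circles) and from the fit with libraries of the same number paired (squares). The estimates nearly coincide, from 0.09 in *H2-D1* and *Tap2* to 0.94 in *Nlrc5* unpaired, while the paired bars are shorter for each gene.

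Within library numbers, the difference was smallest in number 1 for every gene. The log2 CPM ratio of *Drp1* KO over WT was 0.71, 0.99 and 0.76 for *B2m* in numbers 1, 2 and 3, and 0.53, 0.92 and 1.34 for *Nlrc5*. For *Tap1* it was 0.37, 1.16 and 1.31, so that number 1 stood apart. For *H2-D1* it was -0.01, 0.27 and 0.03, the only negative ratio of the 30.

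**Figure D3:**
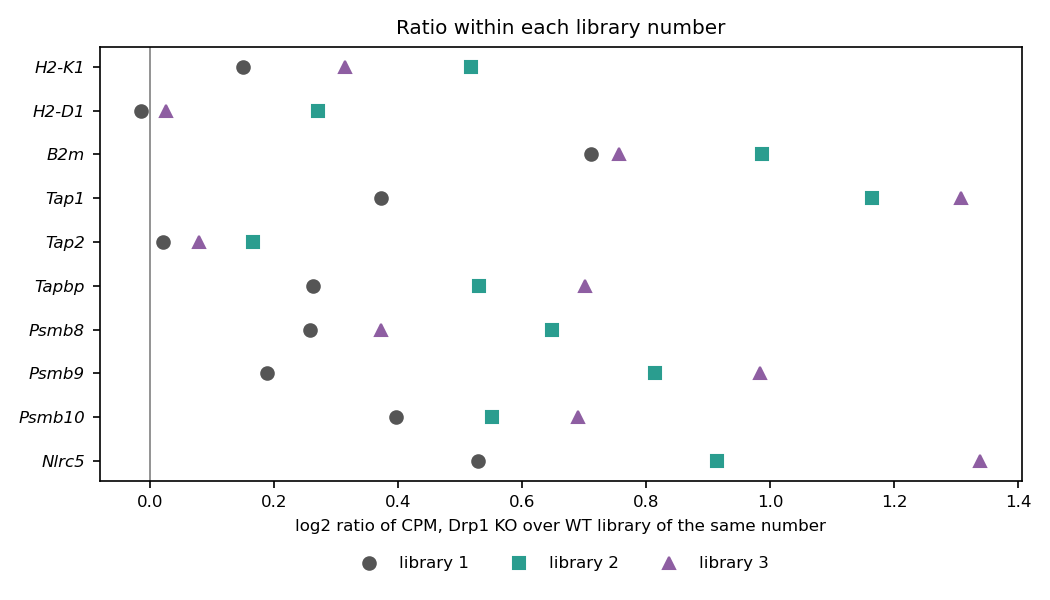
Log2 ratio of CPM in the *Drp1* KO library over the WT library of the same number (horizontal axis) for each gene, with a symbol per number. Number 1 (grey circles) is the lowest of the 3 for all 10 genes, at -0.01 for *H2-D1* and 0.71 for *B2m*.

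Ratios between partner genes in the same library do not depend on the scaling between libraries. With 3 libraries against 3, the exact two-sided permutation test cannot give a p below 0.1, so none of the 6 ratios could pass. The ratio of *Tap1* to *Tap2* in TPM was 3.77, 2.64 and 2.32 in WT and 4.97, 5.07 and 5.37 in *Drp1* KO. The groups did not overlap (exact permutation p = 0.1, adjusted over the 6 ratios 0.12), and the means were 2.91 ± 0.757 and 5.14 ± 0.212. *B2m* over the sum of *H2-K1* and *H2-D1* in TPM was 2.38, 2.78 and 2.93 in WT and 3.49, 3.83 and 4.07 in *Drp1* KO, also without overlap (exact permutation p = 0.1, adjusted 0.12). The mean of this ratio in TPM was 2.69 ± 0.286 in WT and 3.80 ± 0.291 in *Drp1* KO. In CPM it was 0.689 ± 0.0539 and 1.10 ± 0.0787, also without overlap, so its size depends on the unit. Class I heavy chains other than *H2-K1* and *H2-D1* are not in it.

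Immunoproteasome subunits were set against their constitutive counterparts in the same way. *Psmb10* to *Psmb7* was 0.265, 0.239 and 0.267 in WT and 0.411, 0.404 and 0.445 in *Drp1* KO, the tightest groups of the 3 pairs relative to their means, without overlap (exact permutation p = 0.1, adjusted 0.12). *Psmb9* to *Psmb6* was 0.0464, 0.0539 and 0.0416 in WT and 0.0549, 0.0880 and 0.0894 in *Drp1* KO (exact permutation p = 0.1, adjusted 0.12), with *Drp1* KO library 1 just above the highest WT library. *Psmb8* to *Psmb5* was 2.31, 2.04 and 1.94 in WT and 2.55, 2.70 and 2.29 in *Drp1* KO, with overlapping groups (exact permutation p = 0.2, adjusted 0.2). The constitutive genes gave no call (edgeR), with log2 fold changes of 0.23 for *Psmb5* (adjusted p = 0.411), 0.01 for *Psmb6* (0.989, from -0.08 to 0.12 over the alternatives) and -0.22 for *Psmb7* (0.436).

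**Figure D4:**
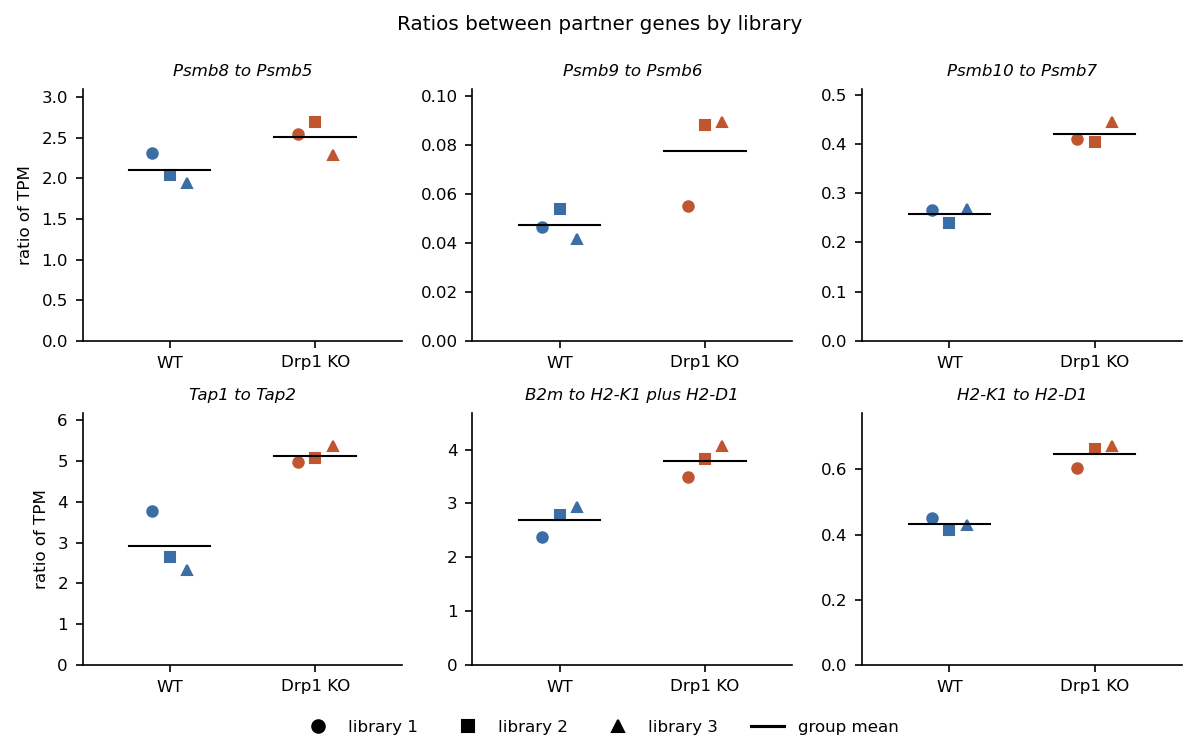
Ratio of TPM between partner genes in each library (vertical axes start at 0, one panel per ratio), with WT in blue, *Drp1* KO in orange and lines at the group means (n = 3). The groups are apart in 5 of the 6 panels and overlap for *Psmb8* to *Psmb5*.

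The ratio of *H2-K1* to *H2-D1* depended on the unit. In TPM its mean was 0.432 ± 0.0186 in WT and 0.647 ± 0.0362 in *Drp1* KO, and in CPM 0.241 ± 0.00940 and 0.283 ± 0.00556, without overlap in either (exact permutation p = 0.1, adjusted 0.12). The share of *H2-K1* counts on transcripts annotated as retained introns, which are shorter than the main coding transcript in several cases, was also higher in each *Drp1* KO library. That share was 3.17%, 3.68% and 6.50% in WT and 9.87%, 13.6% and 15.7% in *Drp1* KO (exact permutation p = 0.1, adjusted over 9 genes 0.9). Of the 9 genes only *H2-K1* had separate groups, a share near the 12.1% of all genes tested that have such a transcript. The retained-intron transcripts with the largest differences were H2-K1-215 (457 bases) and H2-K1-213 (813 bases). H2-K1-215 took 0.603%, 0.352% and 2.77% of the gene's counts in WT and 5.80%, 5.63% and 7.13% in *Drp1* KO. How much of this share comes from reads shared with other class I genes was not tested.

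**Figure D5:**
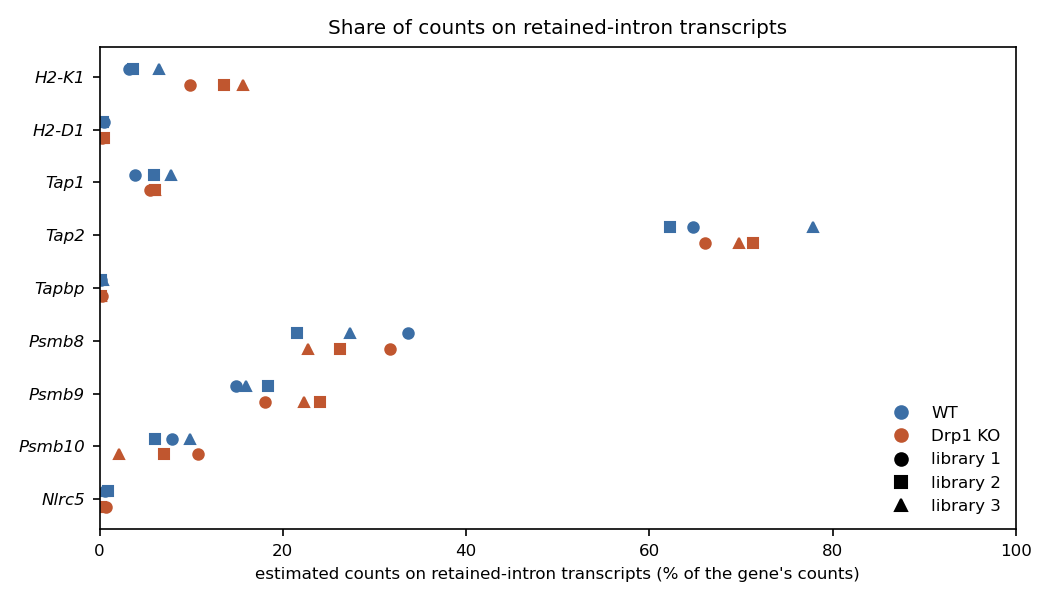
Percent of each gene's estimated counts on transcripts annotated as retained introns (horizontal axis), by library, for the 9 genes with more than 1 transcript, WT in blue and *Drp1* KO in orange. *H2-K1* is the only gene of the 9 whose groups stand apart, as the groups of 12.1% of all genes tested with such a transcript also do. *Tap2* has the highest share, between 62.2% and 77.9% in all 6 libraries.

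The share of the leading transcript overlapped between the groups in 6 of the 9 genes and not in 3, while among the genes tested with more than 1 transcript and counts in every library it did not overlap in 17.1%. The 3 were as follows: Tap1-201 held 62.2% ± 2.66 of *Tap1* counts in WT and 71.1% ± 3.30 in *Drp1* KO, Nlrc5-206 held 90.7% ± 0.744 and 88.3% ± 0.821 of *Nlrc5* counts, and H2-D1-202 held 96.3% ± 0.197 and 96.8% ± 0.138 of *H2-D1* counts. Each had an exact permutation p of 0.1, adjusted over 9 genes 0.3. These shares are the quantifier's estimates from short reads.

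Of the 10 genes, 7 are on chromosome 17 within 1352 kb, in the mouse MHC region, and *Psmb9*, *Tap1*, *Psmb8* and *Tap2* are neighbours. *Tap1* ends 490 bases before *Psmb8* starts, and *Psmb8* ends 2072 bases before *Tap2* starts. Within this cluster the log2 fold changes ran from 0.09 for *Tap2* to 0.91 for *Tap1*, so neighbours did not share a value. *Psmb10* and *Nlrc5* are on chromosome 8 and *B2m* is on chromosome 2.

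The wider class I pathway was described with a list of 46 other genes, all tested. Of these, 23 were higher and 23 lower in *Drp1* KO, with a median log2 fold change of -0.01, and 2 passed upwards and 1 downwards (adjusted p under 0.05, edgeR), against 2.29% and 1.06% of all genes tested. With paired libraries 6 of the 46 were higher and 5 lower at an adjusted p under 0.05, against 6.73% and 5.22% of all genes. *Irf1*, a transcription factor that acts on *Tap1* and *Psmb9* among other genes, was at 45.1, 40.1 and 35.8 CPM in WT and at 55.7, 60.6 and 65.5 CPM in *Drp1* KO, without overlap. Its log2 fold change was 0.59 (SE 0.113, adjusted p = 0.0214, edgeR), and leaving out WT library 2 (0.142) or 3 (0.125), or *Drp1* KO library 2 (0.0859) or 3 (0.0679), ended the call, as did counts rebuilt from TPM (0.51, adjusted p = 0.0788).

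*Uggt1*, which senses misfolded glycoproteins in the endoplasmic reticulum, fell, from 187, 205 and 211 CPM in WT to 139, 125 and 141 CPM in *Drp1* KO. Its log2 fold change was -0.57 (SE 0.0956, adjusted p = 0.0103, edgeR), and leaving out library 2 of either group (WT 0.0704, *Drp1* KO 0.0650) or WT library 3 (0.0656) ended the call. Counts rebuilt from TPM ended it too, at a log2 fold change of -0.32 (adjusted p = 0.265). The proteasome activator subunits gave no call, with log2 fold changes of 0.41 for *Psme1* (adjusted p = 0.145 unpaired, 0.0109 paired) and 0.21 for *Psme2* (0.438), which ran from -0.17 to 0.45 over the alternatives. *Rfx5*, a partner of NLRC5 at class I promoters, was at -0.04 (adjusted p = 0.950, edgeR) and ran from -0.61 to 0.36 over the alternatives, so its direction is not settled. By step of the pathway, the count of genes higher in *Drp1* KO was 6 of 7 for the proteasome, 3 of 8 for trimming, 3 of 8 for folding and loading in the endoplasmic reticulum, 4 of 13 for regulators, 5 of 7 for cross-presentation and 2 of 3 for turnover.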

How the data were processed

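RNA-seq of 3 WT and 3 *Drp1* KO BMDM cultures was used. The sources differ on the oxygen level, the share of L929 medium and the RNA and library kits. The authors quantified reads with kallisto (0.46.1 in the submitters' processing notes, which also name DESeq2 1.44.0) against GRCm39 transcripts and deposited a table per library. Its estimated counts, as the authors deposited them, carry no scaling for depth. Its deposited TPM values are divided by effective length and sum to the same total in every library. The effective length was above the annotated length for 17986 transcripts in 1 or more libraries.

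Of 116873 transcripts, 116159 (99.39%) matched the GENCODE annotation by identifier. The unmatched ones, with 0.542% to 0.575% of counts, were left out. Estimated counts were summed per gene and rounded. At 23389488 to 32231206 counts per library, the floor of 3 counts used here equals 0.0917 to 0.136 CPM. The fit was edgeR 4.0.16 in R 4.3.3 with TMM scaling, a minimum of 10 counts over all libraries and the quasi-likelihood test without covariates. Standard errors are the absolute log2 fold change over the square root of F, and the 95% intervals use the fit's degrees of freedom. On simulated data for this comparison (18120 genes, 200 of them changed 2-fold), 80.5% of the changed genes were recovered and 13 unchanged genes were called. The changed genes were drawn only from genes above a minimum mean CPM. The folds of the 10 class I genes were smaller, from 1.06 for *Tap2* to 1.91 for *Nlrc5*, so this recovery does not describe them. Ratios and shares were compared with exact permutation tests (SciPy 1.17.1), two-sided.

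Library numbers come from the labels, which do not say what they share. Deviations from the group means, over 12248 genes, correlated at 0.51, 0.204 and 0.298 between libraries of number 1, 2 and 3, each above 0.1, so a fit with equal numbers as pairs is given beside the unpaired one where it changes a call. Libraries of unlike number, WT 2 and *Drp1* KO 3, also correlated, at 0.326. No libraries were copies of each other (chi-square per degree of freedom 9.63 or more). Shared sequence was counted as 31-base stretches of GENCODE transcripts, whose length matched the tables for 57 of the 70 transcripts of the 10 genes. The alternatives were DESeq2 1.42.0, other scalings and filters, counts rebuilt from TPM, protein-coding transcripts only, summed heavy chains, the paired fit and leaving out each library. The retained-intron share and the motif spacing were chosen after seeing the data. The genes and lists were chosen with earlier results of these data known. All 10 genes are named, and of the wider list those past the threshold and *Psmb5*, *Psmb6*, *Psmb7*, *Psme1*, *Psme2*, *Irf1* and *Rfx5*, except for items not reported here.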

Additional observations from a re-analysis of the deposited data

How the results depend on the processing

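The count of class I genes past the threshold, 3, was 5 with library sizes alone, 6 with genes kept from 1 count, 5 with protein-coding transcripts only, 6 by DESeq2 and 8 with the replicate block, and it was 0 to 6 with 1 library left out. The count over all genes tested, 621, was 1065 with genes kept from 1 count, 1155 by DESeq2 and 2212 with the replicate block, and 181 to 904 with 1 library left out. For the wider pathway the count of 3 was 5 by DESeq2, 11 with the replicate block and 1 to 6 with 1 library left out. The 0 came without WT library 2. The log2 fold change of *H2-D1* was -0.014 to 0.246 with 1 library left out and turned with the loss of WT library 3 (-0.01) or *Drp1* KO library 1 (-0.014), as it did for no other of the 10 genes under the alternatives run. The class I count by the criteria of the study stayed between 6 and 8. The cause of these changes was not tested. With 3 libraries per group, a ratio could not pass its test.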
